A study of Mus musculus with 2 samples.

Results

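The genes described here are 10 collagen genes whose products do not form banded fibrils: Col4a1, Col4a2 and Col4a5 of the network-forming type IV, Col6a1, Col6a2 and Col6a3 of the beaded-filament type VI, Col8a1 and Col8a2 of the short-chain network type VIII, and Col15a1 and Col18a1, the multiplexins. They were chosen by gene symbol, and all 10 were found among the 21829 genes of the series. The series holds 2 mouse libraries of polyadenylated RNA, 1 from C2C12 myoblasts (WT, genotype WT) and 1 from a C2C12 line with genotype GNE KO (KO), both grown in medium with fetal bovine serum. C2C12 is an immortalised mouse myoblast line. Gne encodes the bifunctional enzyme that starts sialic acid synthesis. The KO line was made with CRISPR-Cas9 aimed at exon 2 of Gne and grown from single cells, so it stands for a single clone. With 1 library per line no difference between these libraries has a replicate check, and no test was made. A fold change compares these 2 libraries rather than the genotypes. By real-time PCR, the study reported Col6a1 and Col8a1 among the matrix genes elevated in KO cells. Gne itself had 6.67 FPKM in WT and 7.34 FPKM in KO, a log2 fold change of 0.12, so its RNA level does not check the labels.

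Collagen IV chains join at their ends into the sheet that underlies basement membranes, and every muscle fibre is wrapped in such a sheet. Collagen VI assembles inside the cell from the chains of Col6a1, Col6a2 and Col6a3 in equal numbers, and its beaded filaments link the basement membrane to the surrounding matrix. In humans, mutations of the collagen VI genes cause Bethlem myopathy and Ullrich congenital muscular dystrophy. Collagens XV and XVIII are basement membrane proteoglycans with interrupted triple helices, and the end of the collagen XVIII chain is cut off as endostatin. Collagen VIII forms hexagonal lattices in vessels and beneath the corneal endothelium.

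A pair of the genes shares a start region, and it is shown here because they rose together. Col4a1 occupies 11248423 to 11362826 on the minus strand of chromosome 8 of GRCm39, and Col4a2 occupies 11362471 to 11499287 on the plus strand, so that the gene models overlap by 356 bases at their starts. Promoter windows of 250 bases before and 50 bases after the start were taken from RefSeq, build GRCm38.p6, and each was placed in GRCm39 by an exact match found at a single position of its chromosome. The Col4a1 window lies at chr8:11362777-11363076 and the Col4a2 window at chr8:11362555-11362854. Their RefSeq starts are 21 bases apart on opposite strands, and capitals mark the 78 bases that both windows hold, each read 5′ to 3′ in the direction of its own gene.
Col4a1: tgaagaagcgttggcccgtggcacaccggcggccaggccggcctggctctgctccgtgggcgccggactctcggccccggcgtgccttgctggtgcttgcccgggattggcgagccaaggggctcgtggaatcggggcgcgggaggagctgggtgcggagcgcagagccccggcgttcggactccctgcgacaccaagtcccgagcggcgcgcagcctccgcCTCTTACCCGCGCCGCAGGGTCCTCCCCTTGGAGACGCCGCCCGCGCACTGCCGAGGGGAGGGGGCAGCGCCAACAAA
Col4a2: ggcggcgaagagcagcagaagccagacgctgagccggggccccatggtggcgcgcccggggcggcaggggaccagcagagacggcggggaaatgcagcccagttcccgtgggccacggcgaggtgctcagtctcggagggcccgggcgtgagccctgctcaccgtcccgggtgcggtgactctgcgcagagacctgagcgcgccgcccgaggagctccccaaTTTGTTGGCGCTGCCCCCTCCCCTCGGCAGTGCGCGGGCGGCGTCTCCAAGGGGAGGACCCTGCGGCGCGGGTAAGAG
The G and C content was 74.0% in the Col4a1 window and 73.7% in the Col4a2 window, against a median of 52.7% over all 32851 promoter windows. The shared stretch held 1 GC box, GGGCGG on either strand. Of all windows, which are longer than this stretch, 35.7% held that motif. Neither window held the TATA box TATAAA on either strand, which 13.6% of all windows held. Col4a5, the remaining collagen IV gene, lies on the plus strand of chromosome X from 140258354 to 140472231. In its window at chrX:140258165-140258464, capitals mark a GC box and the CCAAT box CCAAT, the second being present on either strand in 37.4% of all windows.
Col4a5: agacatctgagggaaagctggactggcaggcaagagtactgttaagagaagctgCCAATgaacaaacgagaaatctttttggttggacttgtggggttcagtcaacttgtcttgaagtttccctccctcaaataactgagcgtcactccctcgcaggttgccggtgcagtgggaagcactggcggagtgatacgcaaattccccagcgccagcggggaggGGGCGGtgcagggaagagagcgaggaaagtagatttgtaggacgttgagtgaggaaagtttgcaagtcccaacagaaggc
Col4a6, which encodes another collagen IV chain, starts 1343 bases away on the opposite strand, and the windows of Col4a5 and Col4a6 do not overlap. Taken whole, the Col4a1 window held 1 GC box and 1 CCAAT box, and the Col4a2 window 3 GC boxes and 1 CCAAT box. The windows of Col6a3, Col6a1 and Col15a1 held none of these motifs. GC boxes were also found for genes without a rise of 2-fold. The windows of Col8a1 and Col8a2 held 4 each, those of Col6a2 held 3 and 1, and a window of Col18a1 held 3. Letter matches describe the windows only.

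Each gene has a single deposited value per library, read here as FPKM, which is scaled to transcript length and to sequencing depth and allows levels of different genes to be compared within a library. Differences are given as log2((KO + 1)/(WT + 1)), on which changes of weakly expressed genes come out too small. The filter, a mean over both libraries of 1 FPKM or more, left 10542 genes. A gene is said to have risen or fallen where this value lay beyond 1 in either direction, a change of more than 2-fold. In these bulk libraries a change in the make-up of the culture and a change of RNA per cell cannot be told apart.

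Of the 10 genes, 8 passed the filter, and 4 of these rose, namely Col4a1, Col4a2, Col4a5 and Col6a3. None fell. Of all genes past the filter, 2.84% rose and 3.43% fell. All 8 had a higher value in KO, a direction shared by 50.7% of all genes past the filter. Their median log2 fold change was 0.92, midway between the 4 that rose and the 4 that did not, against 0.0061 for all genes. Col4a5 passed the filter only through its KO value and so had to differ. Without it, 3 of 7 genes rose and the median was 0.51. Col8a2 and Col15a1 did not pass and were slightly lower in KO.

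**Figure D1:**
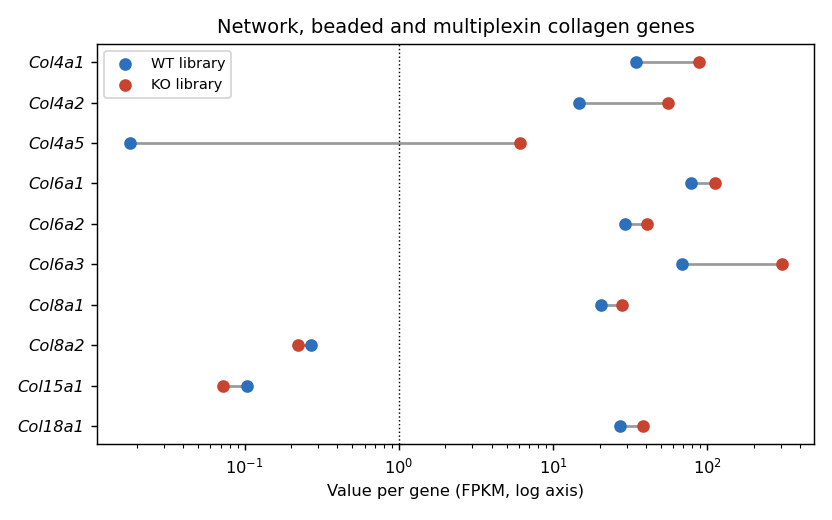
Value of each of the 10 collagen genes in the WT library (blue) and the KO library (red), in FPKM on a log axis, with a line joining the pair and a dotted line at 1 FPKM. There is 1 library per line and no error bar. Col4a5 runs from 0.018 to 6.08 FPKM, whereas Col8a2 and Col15a1 lie below 1 FPKM in both libraries.

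Among the collagen IV genes, Col4a1 had 34.5 FPKM in WT and 88.0 FPKM in KO, a log2 fold change of 1.33. Col4a2 had 14.8 FPKM in WT and 55.4 FPKM in KO, a log2 fold change of 1.83. The partner chains of the common collagen IV protomer thus rose together, and Col4a2 by the larger factor, 3.74 against 2.55. Col4a1 moved from rank 2699 to rank 1014 among all genes and Col4a2 from rank 5387 to rank 1664. The gene models overlap at their starts on opposite strands, so reads lying within that stretch can fit both genes unless strand is used. The supplementary methods describe a directional library kit, but the labels of the series name a kit of another maker. Whether the counting used strand is not given in the sources used here.

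Col4a5, which encodes a chain of the kidney and skin forms of collagen IV and is mutated in Alport syndrome, had 0.018 FPKM in WT and 6.08 FPKM in KO. Its log2 fold change was 2.80 and depends strongly on the pseudocount, being 5.71 when the pseudocount was 0.1 and 1.14 when it was 5. At a pseudocount of 1 this was the largest value of the 10 genes, and at 5 it was the smallest of the 4 that rose. The ratio of the values is not given as a fold because the WT value is close to 0 and its read number is unknown. Even in KO, Col4a5 stayed far below Col4a1. The chains it is known to assemble with were near or at 0. Col4a3 and Col4a4 were listed at 0 in WT, with 0.004 and 0 FPKM in KO, and Col4a6 was listed at 0 in WT and at 0.005 FPKM in KO.

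Collagen VI held the gene with the highest value of the 10 in each library. Col6a3, which encodes the largest of its chains, with many von Willebrand A domains, had 68.6 FPKM in WT and 304 FPKM in KO, a log2 fold change of 2.13 and a ratio of 4.43. It moved from rank 1300 to rank 265 among all genes. Col6a1 had 78.4 FPKM in WT and 112 FPKM in KO, a log2 fold change of 0.51. Col6a2 had 29.1 FPKM in WT and 40.8 FPKM in KO, a log2 fold change of 0.48. Col6a1 was therefore the most abundant of the 10 genes in WT, and Col6a3 was the most abundant in KO. The chains that can take the place of the Col6a3 chain, encoded by Col6a4, Col6a5 and Col6a6, were at or near 0 in both libraries. Col6a4 had 0.009 and 0.04 FPKM, and Col6a5 and Col6a6 were listed at 0 in both.

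Col8a1, the main collagen VIII gene here, had 20.3 FPKM in WT and 28.0 FPKM in KO, a log2 fold change of 0.45. Its partner Col8a2 had 0.268 FPKM in WT and 0.221 FPKM in KO. Col10a1, the related short-chain collagen of hypertrophic cartilage, was also low, at 0.423 and 0.62 FPKM. Col18a1, the endostatin precursor, had 27.0 FPKM in WT and 38.5 FPKM in KO, a log2 fold change of 0.50. The other multiplexin, Col15a1, had 0.103 FPKM in WT and 0.072 FPKM in KO. No fold is drawn from Col8a2 or Col15a1 at these levels, since the reads behind them are unknown.

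**Figure D2:**
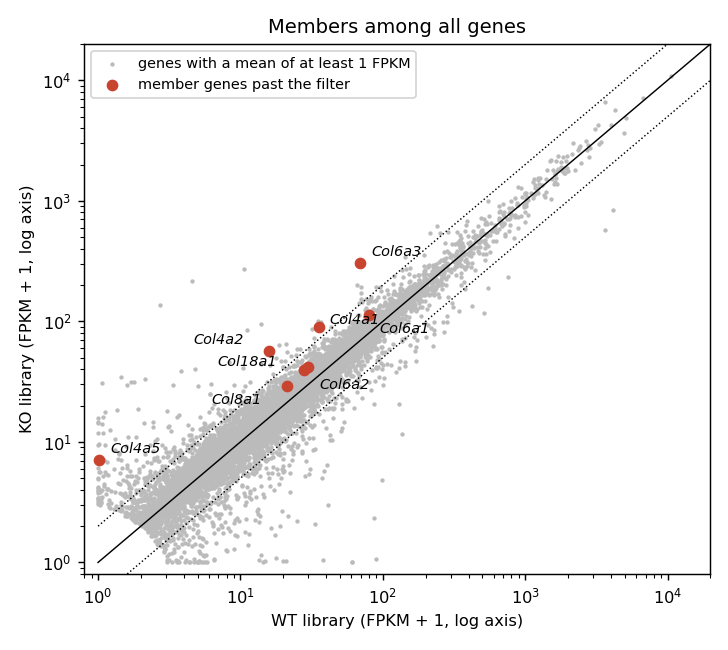
Each gene whose mean reached 1 FPKM (grey) and the 8 collagen genes past that filter (red), as FPKM + 1 in WT against KO on log axes, with the line of equal values and dotted lines at a 2-fold change. Col4a1, Col4a2, Col4a5 and Col6a3 lie above the upper dotted line, and Col6a1, Col6a2, Col8a1 and Col18a1 lie between the line of equal values and that line.

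The make-up of each collagen was then compared within a library, where a ratio of genes does not depend on the scaling of libraries. The ratio of Col4a2 to Col4a1 was 0.43 in WT and 0.63 in KO. Each common collagen IV protomer holds more Col4a1 than Col4a2 chains, and in both libraries Col4a1 was the higher of the pair. The ratio of Col6a2 to Col6a1 was 0.37 in WT and 0.36 in KO, so these chains kept nearly the same proportion. The ratio of Col6a3 to Col6a1 was 0.88 in WT and 2.71 in KO, 3.10 times higher. Thus the chains of collagen VI did not change in proportion to each other. The ratio of Col8a2 to Col8a1 was 0.013 in WT and 0.0079 in KO, and the ratio of Col18a1 to Col15a1 was 262 in WT and 535 in KO, both resting on a gene below the filter. These are RNA ratios with no error, and protein was not analysed here.

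The summed value of the 10 genes was 273 FPKM in WT and 673 FPKM in KO, 2.47 times higher. Of the difference, 58.8% came from Col6a3 and 23.5% from Col4a1 and Col4a2. Col6a1 and Col6a2 made up 39.4% of the sum in WT and 22.7% in KO. Col6a3 made up 25.1% in WT and 45.2% in KO. By type, collagen IV summed to 49.3 FPKM in WT and 149 FPKM in KO, and collagen VI to 176 FPKM in WT and 457 FPKM in KO.

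Among all 44 collagen genes, the 10 genes held 26.9% of the summed value in WT and 29.3% in KO. The sum of the other collagen genes was 2.19 times higher in KO. Collagen IV went from 4.86% to 6.51% of the collagen sum and collagen VI from 17.3% to 19.9%. Collagen XVIII went from 2.66% to 1.68% and collagen VIII from 2.03% to 1.23%, although their own values were higher in KO. The largest shift of share lay outside the 10 genes, in the fibrillar collagens. Collagen I, the chief collagen of tendon and bone, went from 24.4% to 38.9% and collagen III from 34.2% to 22.6%.

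**Figure D3:**
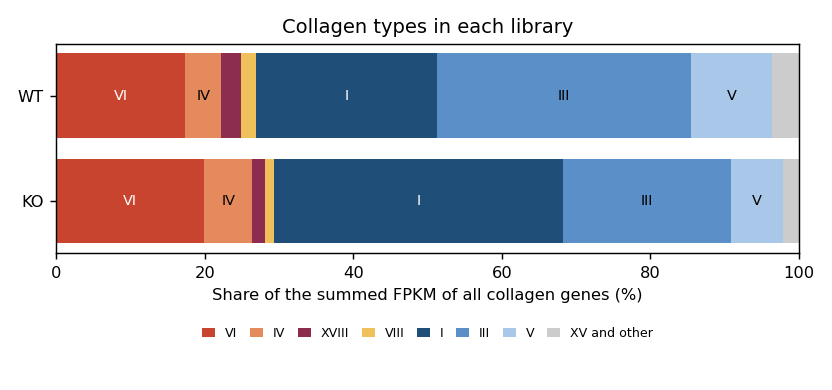
Share of the summed FPKM of all 44 collagen genes held by each collagen type in the WT and the KO library, in percent. Collagens VI, IV, XVIII and VIII (warm colours) together with XV held 26.9% in WT and 29.3% in KO, whereas collagen I widened from 24.4% to 38.9% and collagen III narrowed from 34.2% to 22.6%.

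Genes of some chromosomes differed together between these libraries, so each gene was set beside the genes past the filter whose midpoints lie within 5 Mb of its own, the 10 collagen genes left out. Col6a2, Col6a1 and Col18a1 lie on the minus strand of chromosome 10 within the same stretch, Col6a2 from 76429660 to 76459549, Col6a1 from 76543440 to 76562283 and Col18a1 from 76888012 to 77002390 in GRCm39. Gaps of 83.9 kb separate Col6a2 from Col6a1 and 325.7 kb separate Col6a1 from Col18a1. Their log2 fold changes of 0.48, 0.51 and 0.50 were close to each other and to those around them. The 121 neighbours of Col6a1 had a median of 0.40, 105 of them were higher in KO, and 32 had a larger value than Col6a1 itself. For Col6a2, 37 of 119 neighbours had a larger value, and for Col18a1, 33 of 124. After subtraction of the neighbours' median the values were 0.11 for Col6a1, 0.078 for Col6a2 and 0.099 for Col18a1. On the whole of chromosome 10, 421 of 501 other genes were higher in KO, with a median of 0.30. The part of position in the values of these genes was not tested.

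The neighbours of the genes that rose are given as a description, since these genes were singled out for the size of their difference. For Col4a1 and Col4a2 the median of 30 neighbours was -0.18, with 7 of them higher in KO, and none had as large a value. For Col4a5, which passed the filter only through its KO value, the median of 19 neighbours was 0.07. Col6a3 lies on the minus strand of chromosome 1 from 90693645 to 90771780, far from the other collagen VI genes. The median of its 55 neighbours was 0.13, and 1 had a larger value. After subtraction the values were 1.51 for Col4a1, 2.02 for Col4a2, 2.72 for Col4a5 and 2.00 for Col6a3. Col8a1, on chromosome 16, was higher in KO within a stretch of lower genes. The median of its 21 neighbours was -0.37, 1 of them was higher in KO, and its own value after subtraction was 0.81.

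**Figure D4:**
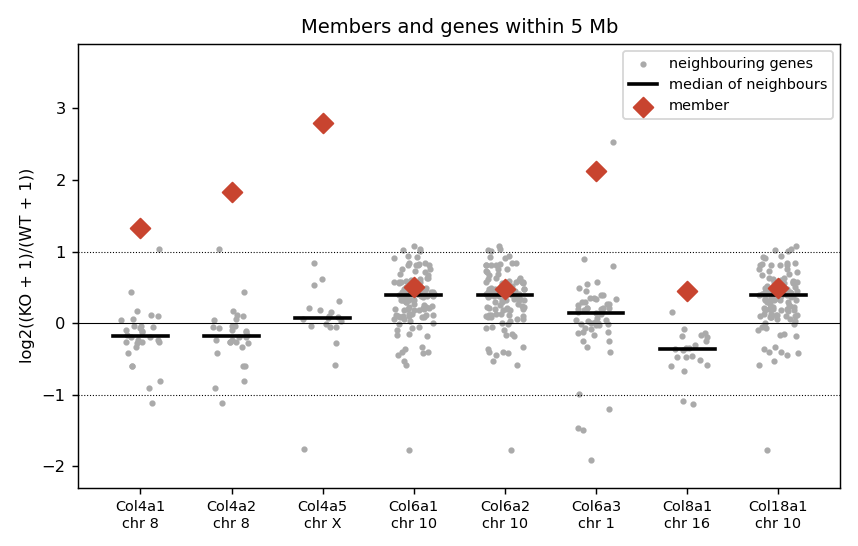
log2((KO + 1)/(WT + 1)) of the 8 collagen genes past the filter (red diamonds) and of the genes within 5 Mb (grey points), with the median of the neighbours as a black bar and dotted lines at a 2-fold change. Col4a1, Col4a2, Col4a5, Col6a3 and Col8a1 lie above their neighbours' median by 0.81 or more, and the chromosome 10 genes Col6a1, Col6a2 and Col18a1 by 0.11 or less.

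Genes that work with these collagens were taken from lists by function. Fibrillar and fibril-associated collagens resembled the 10 genes in direction, since 8 of 20 passed the filter, all 8 were higher in KO and 3 rose. Their median was 0.78. Col1a1 rose from 9.66 to 273 FPKM, Col1a2 from 237 to 621 FPKM and Col16a1, a fibril-associated collagen, from 1.96 to 7.98 FPKM. Col3a1 had 347 FPKM in WT and 519.9 FPKM in KO.

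Basement membrane partners of collagen IV had no shared direction. Of 15 genes past the filter 8 were higher in KO, 2 rose and 3 fell, and the median was 0.02. Nid2, a nidogen that joins laminin to collagen IV, rose from 5.23 to 29.3 FPKM, while the more abundant Nid1 had 89.0 FPKM in WT and 66.6 FPKM in KO. Smoc2, a secreted calcium-binding protein of the matrix, rose from 0.406 to 6.92 FPKM and, like Col4a5, passed the filter only through its KO value. Tinagl1, a matricellular basement membrane protein, fell from 21.3 to 4.56 FPKM. Fbln2, a fibulin, fell from 89.2 to 40.5 FPKM and Lama5, a laminin chain, from 23.7 to 10.7 FPKM. Sparc, a collagen-binding glycoprotein, was nearly equal, at 679 and 687 FPKM.

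Of 6 crosslinking genes past the filter, 4 were higher in KO and 1 rose, namely Loxl1, a lysyl oxidase-like enzyme, from 15.2 to 42.3 FPKM. Lox had 396 FPKM in WT and 366 FPKM in KO. Of 20 genes of collagen folding, hydroxylation and secretion past the filter, 14 were higher in KO and none passed a 2-fold change in either direction. Serpinh1, the collagen chaperone Hsp47, had 534 FPKM in WT and 533 FPKM in KO. P4hb, a subunit of prolyl hydroxylase, had 493 FPKM in WT and 467 FPKM in KO. The median of this list was 0.19.

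Among receptors, 14 of 21 passed the filter, 11 of these were higher in KO, 1 rose and none fell, and the median was 0.50. Mrc2, the endocytic collagen receptor Endo180, rose from 19.7 to 45.8 FPKM. Itgb1, the integrin subunit shared by the main collagen receptors, had 153 FPKM in WT and 247 FPKM in KO. Of the alpha subunits in this list, Itga1, Itga2, Itga10 and Itga11 did not pass the filter. They had 0.008, 0.004, 0.563 and 0.006 FPKM in WT and 0.033, 0, 0.531 and 0.576 FPKM in KO, in that order. Itga3, Itga5 and Itgav passed and were among those higher in KO. The glypican Gpc1 had 196 FPKM in WT and 268 FPKM in KO. Antxr2, a receptor that takes up collagen VI, was chosen after its values were seen and had 9.75 and 15.8 FPKM. The receptors past the filter that were lower in KO were Cspg4, Itgb3 and Cd44. Cspg4 had 18.9 and 16.8 FPKM, Itgb3 had 7.45 and 4.51 FPKM, and Cd44 had 55.2 and 53.6 FPKM. Proteases and their inhibitors showed no 2-fold change among 14 genes past the filter, and 7 were higher in KO. Of these the most abundant were Pcolce, an enhancer of procollagen processing, with 479 and 465 FPKM, and Timp2 with 269 and 281 FPKM. Of the collagen VI partners, 3 passed the filter, 2 of these were higher in KO and none rose or fell. The median of these 3 was 0.75. Bgn, the small proteoglycan biglycan, which binds collagen VI, had 545 FPKM in WT and 1004 FPKM in KO, and Fn1 had 138 and 232 FPKM. Matn2 was lower in KO, with 35.9 and 33.8 FPKM.

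**Figure D5:**
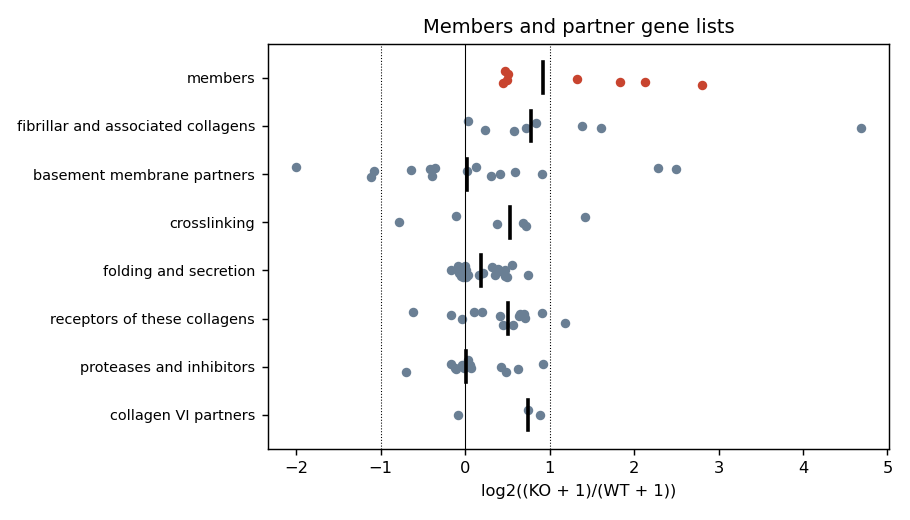
log2((KO + 1)/(WT + 1)) of each gene past the filter in the 10 collagen genes (red, top row) and in lists of genes that work with them (grey-blue), with the median of each list as a black bar and dotted lines at a 2-fold change. The 8 collagen genes all lie right of 0, with a median of 0.92, or 0.51 without Col4a5. The 8 fibrillar and associated collagens also all lie right of 0, with a median of 0.78. Basement membrane partners spread to both sides, with a median of 0.02.

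The cell type was checked with marker lists. Of 7 myoblast markers, 6 passed the filter, 3 of these fell and 1 rose, and their summed value was 246 FPKM in WT and 66.2 FPKM in KO. Myf5 rose, from 9.14 to 20.3 FPKM. Myod1 fell and was listed at 0 in KO, against 59.97 FPKM in WT. Des fell from 97.6 to 3.84 FPKM and Cdh15 from 16.6 to 0.701 FPKM, and Pax7 was listed at 0 in both. Of 6 myotube markers 1 passed, with sums of 2.55 and 3.97 FPKM. Endothelial cells and pericytes are known makers of collagen IV. The 5 endothelial markers summed to 0.01 FPKM in WT and 0.028 FPKM in KO, with Cdh5, Kdr and Cldn5 listed at 0 in both. Of 6 pericyte and smooth muscle markers, Pdgfrb and Cspg4 passed, with sums over the list of 73.6 and 97.1 FPKM, and Abcc9 and Kcnj8 were listed at 0 in both. Pdgfrb was higher in KO, with 54.5 and 80.2 FPKM, and Cspg4 was lower, with 18.9 and 16.8 FPKM. Of 7 fibroblast markers 3 passed and 1 fell, with sums of 346 and 171 FPKM, and Lum and Tcf21 were listed at 0 in both. Cd34 fell from 136 to 10.6 FPKM and Ly6a had 198 FPKM in WT and 146 FPKM in KO. Pdgfra was higher in KO, with 10.8 and 12.3 FPKM. Dcn, with 0.272 and 1.68 FPKM, and Dpt, with 0.041 and 0.493 FPKM, were also higher in KO but did not pass the filter. The 4 macrophage markers summed to 2.90 and 1.14 FPKM, with Ptprc and Adgre1 listed at 0 in both. The part of the lower myoblast markers in the collagen values was not tested.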

How the data were processed

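RNA of WT and KO C2C12 cells was sequenced in 1 library each. According to the methods and the processing notes, reads were trimmed with Trim Galore (0.6.6), aligned with STAR (2.7.9a in the notes, another release in the methods) and quantified with RSEM (1.3.3). The methods name GRCm39 and the notes GRCm38. The values deposited by the authors, listed by gene symbol, name no unit and were read as FPKM. They could also be TPM from which some genes were left out, which would change a library by a common factor. The values summed to 568543 in WT and 574253 in KO, and mitochondrial genes were not among them. As depth is unknown, counting intervals could not be had.

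Of 21853 entries, 24 repeated a symbol and the entry with the higher mean was kept. A pseudocount of 1 and a minimum mean of 1 FPKM were used, with no scaling. Neighbours were taken from GENCODE vM39 (GRCm39), which held 10171 of the 10542 genes by symbol. The study used DESeq2, which could not be applied to single libraries. All 10 genes, Gne, the 2 most abundant genes of each list and those past a 2-fold change (at most 4 per list and direction) were named. Further genes, Antxr2 among them, were named outside this rule after their values were seen. Genes and lists were chosen with earlier results of these data known. The calculation of fold changes was checked on simulated data with planted changes, from which no value is reported. Alternatives were pseudocounts of 0.1 and 5, no filter, a minimum mean of 5 FPKM, scaling by the median of ratios or the upper quartile, subtraction of the neighbours' median and, for chain ratios, 1 FPKM added to both values. Python 3.11.15, numpy 2.4.6, pandas 2.3.3 and matplotlib 3.10.9 were used.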

Additional observations from a re-analysis of the deposited data

How the results depend on the processing

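The counts of 4 genes that rose and 0 that fell were 4 and 0 under each alternative that was run, except that with a minimum mean of 5 FPKM Col4a5 left the comparison and 3 rose. The share of all genes that rose ranged from 0.97% with a pseudocount of 5 to 3.89% with a pseudocount of 0.1. The median log2 fold change of 0.92 was 0.93 with a pseudocount of 0.1, 0.82 with a pseudocount of 5, 0.91 after scaling by the median of ratios or the upper quartile, and 1.16 after subtraction of the neighbours' median. It was 0.50 without a filter and 0.51 with a minimum mean of 5 FPKM, because both settings change which genes enter. With 1 FPKM added to both values, the ratio of Col4a2 to Col4a1 in WT was 0.45, that of Col6a2 to Col6a1 was 0.38 in WT and 0.37 in KO, and that of Col6a3 to Col6a1 in KO was 2.70. That of Col8a2 to Col8a1 was then 0.060 in WT and 0.042 in KO, and that of Col18a1 to Col15a1 was 25.4 in WT and 36.8 in KO, since the added value exceeds the low gene. No paired analysis was possible because each line has 1 library, and no library could be left out. Without counts, the error of low genes such as Col4a5 in WT, Col8a2 and Col15a1 is unknown.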
